A study of Arabidopsis thaliana with 4 samples.

Results

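The 9 genes described here are SAUR (SMALL AUXIN UP RNA) genes of Arabidopsis thaliana that lie on chromosomes 2 and 4. They are SAUR14 (AT4G38840), SAUR15 (AT4G38850), SAUR16 (AT4G38860), SAUR50 (AT4G34760), SAUR25 (AT4G13790) and SAUR9 (AT4G36110) on chromosome 4, and SAUR6 (AT2G21210), SAUR12 (AT2G21220) and SAUR10 (AT2G18010) on chromosome 2. Each was found by its locus name in the array's annotation and had 1 probe of 60 bases. The set was put together with earlier results of these data known, so its counts are not those of an unselected set. They are 9 of the 20219 genes with a probe of their own, and 8 of them are among the 18286 genes tested. SAUR9 was not tested, because its probe was well above background in 1 of the 8 channels, the lower flank of the first replicate at 10 min. The other 8 probes were well above background and unsaturated in all 8 channels.

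The RNA came from inflorescence stems of ecotype Col with no mutation or transgene named in the labels. For all samples the labels also give 3 days at 4 °C, 10 days on plates and growth at 23 °C. Plants whose primary stem measured 4 to 8 cm were laid on their side in dim, non-directional light at 23 °C for 10 or 30 min, the top 5 mm was cut off, and the next 3 cm of stem was split by hand along its length into an upper and a lower flank. Both flanks of a time were hybridised together on a 2-colour array, with 2 arrays per time, and the dyes were exchanged on the second replicate. No upright or unstimulated stem was part of the comparison, so a difference between 30 and 10 min has no starting level to be set against. Both arrays of a time are named as biological replicates, yet the labelling protocol describes each cRNA as labelled with both dyes, so p-values may measure technical spread alone. A flank holds many cell types, and fewer cells of a type cannot be told apart from less RNA per cell.

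SAUR genes encode small proteins whose short-lived transcripts appear within minutes of auxin reaching a cell. Auxin is bound by TIR1/AFB receptors, which remove Aux/IAA repressors and so free ARF factors to switch on SAUR and other early genes. Several SAUR proteins, among them SAUR9 and SAUR19, bind and inhibit PP2C.D phosphatases, which keeps plasma membrane proton pumps (AHA) active, acidifies the wall and lets cells elongate. In a stem laid on its side, the starch-filled endodermis senses gravity, auxin is moved toward the lower flank, and faster growth there turns the stem upward.

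The chromosome 4 genes SAUR14, SAUR15 and SAUR16 lie side by side, and so do SAUR6 and SAUR12 on chromosome 2. The annotation places the probes at chr4:18125170-18125229 (minus strand) for SAUR14, chr4:18126277-18126336 (plus strand) for SAUR15 and chr4:18130482-18130541 (plus strand) for SAUR16. The remaining chromosome 4 probes lie at chr4:16582591-16582650 (minus strand) for SAUR50, chr4:7999871-7999930 (minus strand) for SAUR25 and chr4:17090100-17090159 (plus strand) for SAUR9. On chromosome 2 the probes lie at chr2:9092689-9092748 (minus strand) for SAUR6, chr2:9096633-9096692 (plus strand) for SAUR12 and chr2:7841261-7841320 (plus strand) for SAUR10. The sources used here give no genome build for these positions, and exon or UTR annotation was not used here. Strands were read from the order of each probe's start and end coordinates. The chromosome 2 positions did not lie within the genes of the RefSeq gene table used for names, so they are not gene positions in that table. Probe sequences were not used here either, so whether a probe also binds the transcript of a related SAUR gene was not tested.

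After 30 min the lower flank held more transcript than the upper flank for 5 of the 8 tested genes, and none was lower there. The 5 were SAUR25, SAUR15, SAUR14, SAUR50 and SAUR6, with differences from 1.27-fold to 2.51-fold. Of all 18183 genes tested at this time, 0.528% passed the same threshold (limma, Benjamini-Hochberg adjusted p under 0.05), 0.33% with the lower flank higher and 0.198% with it lower. With the replicate number, which here is the dye orientation, as a block, all 8 passed, as did 34.6% of all genes. With median centring of the ratios in place of loess none passed, and SAUR25 gave 1.33 (adjusted p = 0.223). The remaining genes, SAUR16, SAUR10 and SAUR12, had the lower flank brighter on both arrays but did not pass. The median difference of the 8 was 0.57 on the log2 scale (lower over upper flank), against -0.00062 over all genes. An offset of 50 had been added to the signals, which shrinks ratios of dim probes more than those of bright ones. Signal above background ran from 38.3 to 89.4 for SAUR6 and from 519 to 2613 for SAUR50. The sizes of these differences are thus not comparable between genes.

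SAUR25 had the largest difference of the group. Its log2 ratio of lower over upper flank was 1.28 and 1.38 on the arrays at 30 min, and 0.12 and 0.14 on those at 10 min. The 30 min ratios lay far above the 10 min ratios, with no overlap. The fitted difference at 30 min was 1.33 ± 0.04 (SE, n = 2 arrays), or 2.51-fold (limma adjusted p = 0.000934), rank 12 of 18183 genes from the highest. With the deposited processed signals the difference was 1.94 on the log2 scale (adjusted p = 0.00688).

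SAUR15, also known as SAUR-AC1, is one of the first SAUR genes described in Arabidopsis and a standard early auxin marker. Its log2 ratios were 0.34 and 0.30 at 10 min and 1.00 and 1.22 at 30 min, above 0 on every array and separate between the times. The 30 min difference was 1.11 ± 0.06, or 2.16-fold (limma adjusted p = 0.00586). With the deposited processed signals, to which no offset was added, it was 1.72.

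SAUR14, the neighbour of SAUR15, gave log2 ratios of 0.25 and 0.25 at 10 min and 0.75 and 0.90 at 30 min. Both flanks therefore differed in the same direction on all 4 arrays, by more at 30 min. The 30 min difference was 0.83 ± 0.05, or 1.77-fold (limma adjusted p = 0.00803). SAUR16, the last of the 3 adjacent genes, gave 0.24 and -0.02 at 10 min and 0.64 and 0.53 at 30 min. Its 30 min difference of 0.58 ± 0.07 missed the threshold (limma adjusted p = 0.0634), and its 2 arrays at 10 min lay further apart than those of SAUR14 or SAUR15.

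SAUR50 is known, with SAUR14 and SAUR16, as a gene whose transcript light changes in opposite ways in the cotyledons and hypocotyl of seedlings. It gave log2 ratios of 0.00 and 0.14 at 10 min and 0.53 and 0.58 at 30 min. The 30 min difference was 0.55 ± 0.05, or 1.47-fold (limma adjusted p = 0.0246). The call was lost with the deposited processed signals (0.59, adjusted p = 0.0758) and with a smaller normexp offset of 16 (0.57, adjusted p = 0.066).

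The fitted 30 min differences of the chromosome 2 genes were 0.34 or less with the offset of 50, which shrinks ratios of dim probes most. SAUR6 and SAUR12 had the dimmest tested probes (signal above background 38.3 to 89.4 and 56.1 to 133), while SAUR10 was brighter (284 to 692). SAUR6 gave log2 ratios of 0.08 and 0.08 at 10 min and 0.32 and 0.36 at 30 min, and its 30 min difference of 0.34 ± 0.03, or 1.27-fold, passed narrowly (limma adjusted p = 0.043). Without a filter on dim probes it did not pass (adjusted p = 0.0537), and with the deposited processed signals the value was 0.77 (adjusted p = 0.0264). SAUR10, an auxin- and brassinosteroid-responsive gene that influences branch angle, gave -0.03 and 0.10 at 10 min and 0.27 and 0.29 at 30 min, a difference of 0.28 ± 0.04 (limma adjusted p = 0.101). SAUR12, beside SAUR6, gave 0.13 and -0.02 at 10 min and 0.23 and 0.11 at 30 min, a difference of 0.17 ± 0.05 (limma adjusted p = 0.329) that became 0.33 with the processed signals. The 10 and 30 min ratios of SAUR12 overlapped, while those of SAUR6 and SAUR10 did not. The overlap of SAUR12 was between arrays of unlike dye orientation. Between arrays of the same orientation its ratio went from 0.13 to 0.23 and from -0.02 to 0.11.

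SAUR9, which is not well above background in 7 channels, gave log2 ratios of 0.18 and -0.10 at 10 min and 0.06 and 0.04 at 30 min. With neither flank well above background at 30 min no fold is given, and a flank difference of SAUR9 was not detectable with this probe.

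**Figure D1:**
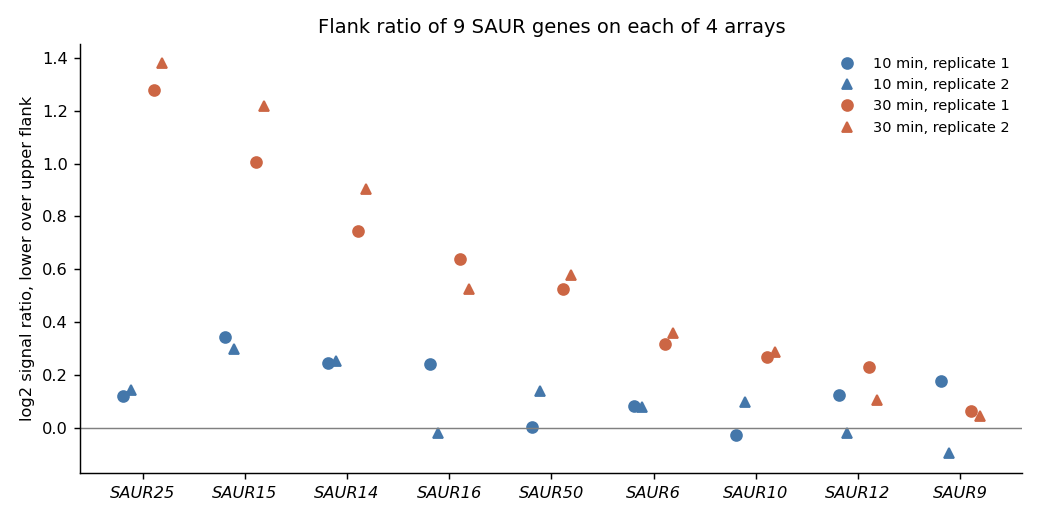
Log2 signal ratio of lower over upper flank (vertical axis) for each of the 9 genes (horizontal axis) on each of the 4 arrays, with blue for 10 min, orange for 30 min, circles for replicate 1 and triangles for replicate 2. SAUR25 (1.28 and 1.38) and SAUR15 (1.00 and 1.22) stand highest at 30 min, and the 30 min points lie above the 10 min points for 7 of the 8 tested genes.

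At 10 min none of the 8 tested genes passed, and 0% of 18234 genes did so by limma (smallest adjusted p 0.369, with 1116 genes at an unadjusted p under 0.05). The fitted flank difference of SAUR15 was 0.32 ± 0.06 (unadjusted p = 0.00282, adjusted p = 0.56) and that of SAUR14 was 0.25 ± 0.05 (unadjusted p = 0.00363, adjusted p = 0.571). SAUR25 gave 0.13 ± 0.04 and SAUR16 gave 0.11 ± 0.07. SAUR6 (0.08 ± 0.03), SAUR50 (0.07 ± 0.05), SAUR12 (0.05 ± 0.05) and SAUR10 (0.04 ± 0.04) had unadjusted p-values from 0.0638 to 0.451. Both arrays were above 0 for 5 genes (SAUR14, SAUR15, SAUR25, SAUR6 and, by under 0.01 on one array, SAUR50), against 22.4% of all genes, and of mixed sign for SAUR16, SAUR12 and SAUR10. At 30 min both arrays were above 0 for 8 of 8, against 25.2% of all genes.

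Calls at 10 min depended on how the spread was estimated. SAUR14 and SAUR15 passed when the 10 min arrays were fitted alone (adjusted p = 0.0303 and 0.0015), and equally when either 30 min array was left out. Leaving out a 10 min replicate leaves 1 array of 1 dye orientation at that time, so that dye and flank cannot be told apart, and the lone array is assumed to vary like those at 30 min. In that setting SAUR15 passed without the second replicate (0.34, adjusted p = 0.0202) and not without the first (0.30, adjusted p = 0.187). With the same block, 6 of the 8 passed at 10 min, where 23.4% of all genes passed too. That fit leaves 1 residual degree of freedom per gene.

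The flank difference itself changed between the times for SAUR25. Its difference at 30 min exceeded that at 10 min by 1.20 ± 0.06 on the log2 scale (limma adjusted p = 0.0127), where 0.127% of 18167 genes passed in either direction and 0.105% with the later difference larger. The increases for SAUR15 (0.79 ± 0.08, adjusted p = 0.0832), SAUR14 (0.58 ± 0.07, adjusted p = 0.0902), SAUR50 (0.48 ± 0.07, adjusted p = 0.113) and SAUR16 (0.47 ± 0.10, adjusted p = 0.193) did not pass. Those of SAUR6 (0.26 ± 0.05), SAUR10 (0.24 ± 0.06) and SAUR12 (0.11 ± 0.08) did not pass either. Among the 52 other SAUR genes tested, 8 (15.4%) passed with the later difference larger. The call for SAUR25 was lost with the deposited processed signals, where the increase was 1.71 (adjusted p = 0.0524), and with median centring in place of loess, where it was 1.21 (adjusted p = 1). With the replicate block, all 8 genes passed, as did 38% of all genes. On single arrays, both 30 min ratios lay above both 10 min ratios for 7 of the 8 tested genes, all but SAUR12, a pattern that 19.5% of genes showed.

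The level in each flank was then compared between the times, as the log2 signal of that flank's channel after scaling between arrays. Levels of different probes are not comparable with each other, so each gene is set only against itself. In the upper flank SAUR50, SAUR14, SAUR16 and SAUR15 were lower at 30 than at 10 min, by 1.67-fold to 1.88-fold, where 6.13% of genes passed, 2.48% higher and 3.65% lower. In the lower flank SAUR25 was higher at 30 min, while SAUR50 and SAUR16 were lower, where 14.2% of genes passed, 6.52% higher and 7.68% lower. The median change of the 8 genes was -0.54 in the upper flank and -0.01 in the lower flank, against 0.01 over all genes in each flank. With the offset of 50, the 5 largest flank differences at 30 min were those of SAUR25, SAUR15, SAUR14, SAUR16 and SAUR50. For the last 4 of these, the upper flank was thus lower at 30 min and the lower flank was not higher by the test.

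**Figure D2:**
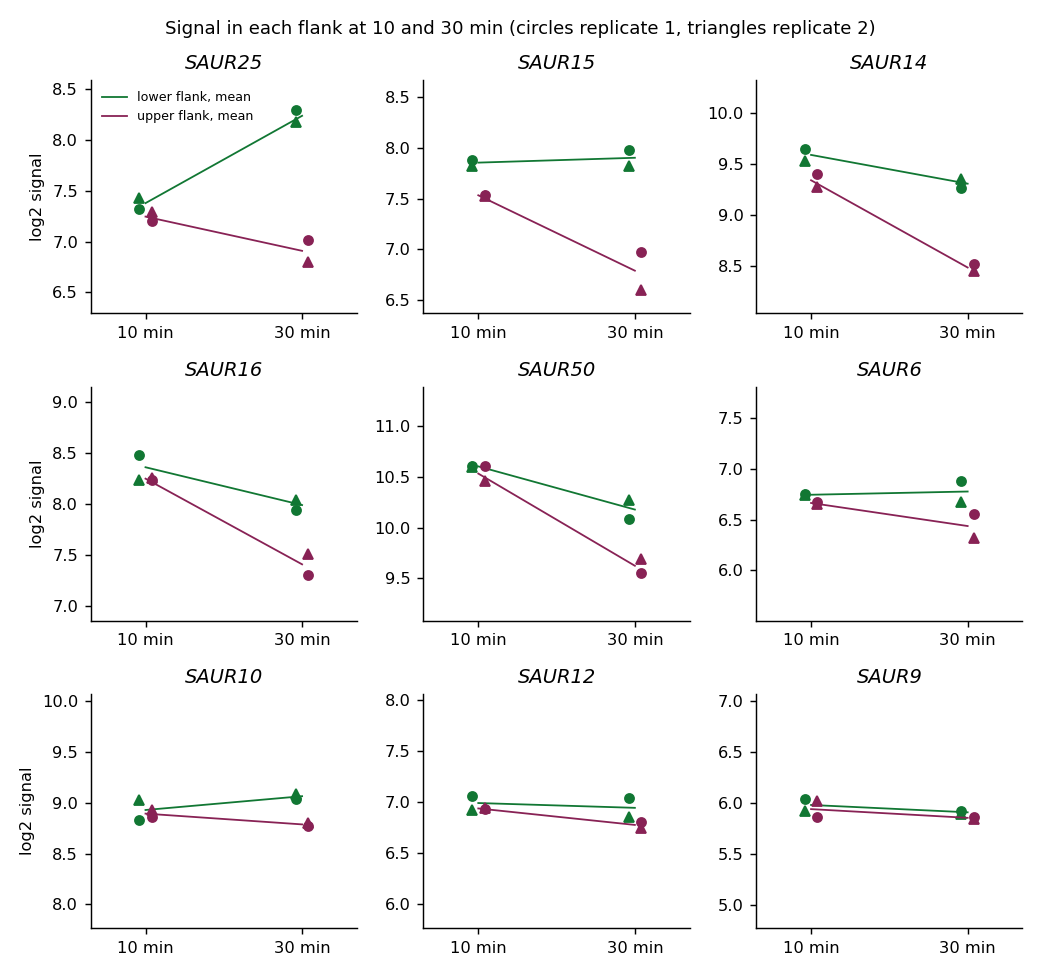
Log2 signal (vertical axis, each panel spanning the same range) of each gene in the lower flank (green) and the upper flank (purple) at 10 and 30 min, with circles for replicate 1, triangles for replicate 2 and lines joining the means. The lower-flank line climbs steeply for SAUR25, from 7.38 to 8.24, whereas for SAUR14, SAUR16 and SAUR50 both lines descend and the upper flank descends further.

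The lower-flank log2 signal of SAUR25 was 7.32 and 7.43 at 10 min and 8.30 and 8.18 at 30 min. In the upper flank it was 7.20 and 7.29 at 10 min and 7.02 and 6.80 at 30 min. The lower flank at 30 min stood above every other value and the upper flank at 30 min below every other value. The lower flank rose by 0.86 ± 0.10, or 1.81-fold (limma adjusted p = 0.00015), and the upper-flank change of -0.34 ± 0.10 did not pass (adjusted p = 0.101).

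In the lower flank SAUR15 gave log2 signals of 7.88 and 7.83 at 10 min and 7.98 and 7.82 at 30 min, which overlap. Its upper-flank signals were 7.54 and 7.53 at 10 min and 6.98 and 6.60 at 30 min, with no overlap. The upper flank fell by 0.74 ± 0.13 (limma adjusted p = 0.0112), and the lower-flank change was 0.05 ± 0.10 (95% interval -0.17 to 0.26). With the processed signals the upper-flank change was -1.23.

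SAUR14 gave lower-flank log2 signals of 9.65 and 9.53 at 10 min and 9.26 and 9.35 at 30 min. Its upper-flank signals were 9.41 and 9.27 at 10 min and 8.52 and 8.44 at 30 min, so that the upper flank at 10 min overlapped the lower flank at 30 min. The upper flank fell by 0.86 ± 0.10 (limma adjusted p = 0.00134), and the lower-flank change of -0.28 ± 0.10 did not pass (adjusted p = 0.0738).

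SAUR16 gave lower-flank log2 signals of 8.48 and 8.24 at 10 min and 7.95 and 8.04 at 30 min, and upper-flank signals of 8.24 and 8.26 at 10 min and 7.30 and 7.51 at 30 min. Both flanks at 30 min lay below both flanks at 10 min. The upper flank fell by 0.84 ± 0.10 (limma adjusted p = 0.00196) and the lower flank by 0.37 ± 0.11 (adjusted p = 0.0371). The lower-flank call was lost without the first 10 min replicate (-0.25, adjusted p = 0.53), the first 30 min replicate (-0.33, adjusted p = 0.144) or the second 30 min replicate (-0.42, adjusted p = 0.0614).

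SAUR50 followed the same order, with lower-flank log2 signals of 10.61 and 10.59 at 10 min and 10.08 and 10.27 at 30 min, and upper-flank signals of 10.61 and 10.46 at 10 min and 9.56 and 9.69 at 30 min. The flanks overlapped at 10 min and were apart at 30 min. Its upper flank fell by 0.91 ± 0.10, or 1.88-fold (limma adjusted p = 0.00134), and its lower flank fell by 0.42 ± 0.10 (adjusted p = 0.0152). The lower-flank call was lost without the first 10 min replicate (-0.42, adjusted p = 0.122), the second 10 min replicate (-0.43, adjusted p = 0.0622) or the first 30 min replicate (-0.33, adjusted p = 0.0608).

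None of the 3 chromosome 2 genes passed between the times in either flank. SAUR6 gave mean log2 signals of 6.74 and 6.78 in the lower flank at 10 and 30 min and 6.66 and 6.44 in the upper flank, where its change was -0.23 ± 0.10 (limma adjusted p = 0.248). SAUR12 gave means of 6.99 and 6.94 in the lower flank and 6.94 and 6.77 in the upper flank, a change there of -0.16 ± 0.09. SAUR10 gave means of 8.93 and 9.06 in the lower flank and 8.89 and 8.79 in the upper flank, a change there of -0.11 ± 0.09 that was 0.06 when the arrays were not scaled to each other. The 30 min upper-flank level was the lowest of the 4 means for each of these genes and did not overlap the next in order.

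SAUR9 gave mean log2 signals between 5.85 and 5.98 in the 4 combinations of flank and time, and their order has no meaning where the probe was not well above background. On single arrays, both 30 min upper-flank signals lay below both 10 min signals for 8 of the 8 tested genes, a pattern that 26.3% of all genes showed. Lower-flank signals of 2 genes (SAUR25 and SAUR10) were higher at 30 min without overlap, against 32% of all genes, and 3 (SAUR14, SAUR16 and SAUR50) were lower, against 27.7%. Without scaling between arrays the median of all genes shifted by 0.14 in each flank, and none of the 8 genes passed in either flank. The unscaled upper-flank values of SAUR14 (-0.70), SAUR16 (-0.71), SAUR50 (-0.73) and SAUR15 (-0.62) were still below 0.

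**Figure D3:**
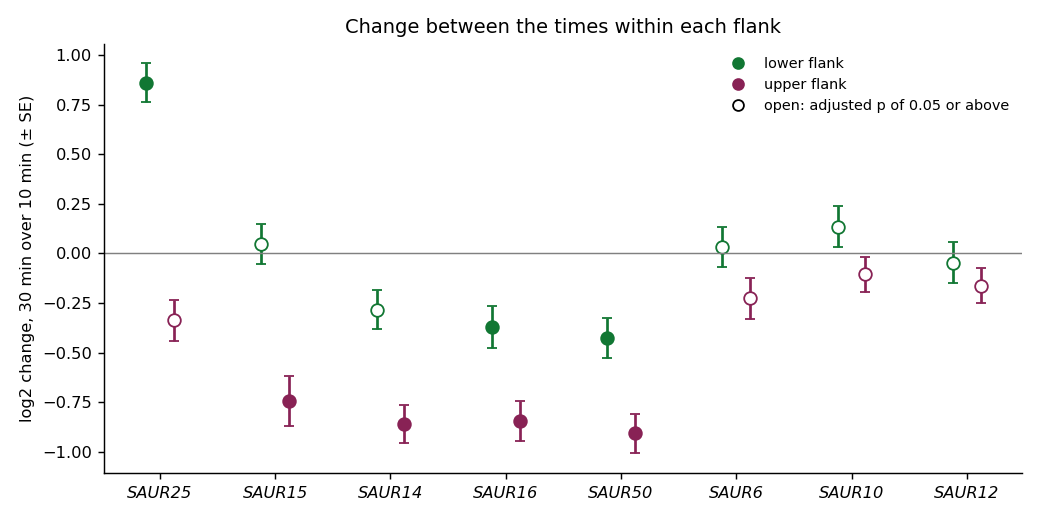
Log2 change in signal, 30 over 10 min, within the lower flank (green) and the upper flank (purple) for the 8 tested genes, with bars of 1 standard error and filled symbols for an adjusted p under 0.05. Upper-flank values of SAUR50, SAUR14, SAUR16 and SAUR15 lie between -0.91 and -0.74, and SAUR25 is alone in its lower-flank value of 0.86.

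The rest of the SAUR family was measured on the same arrays. Of 71 other SAUR genes in the RefSeq gene table, 57 had a probe of their own and 52 were tested. At 30 min 12 of the 52 passed with the lower flank higher, or 23.1%, and none with it lower, with a median of 0.03. Of all genes, 0.33% passed with the lower flank higher and 0.198% with it lower. SAUR19 (1.68 ± 0.04), SAUR24 (1.65 ± 0.04) and SAUR22 (1.63 ± 0.06), growth-promoting genes of a chromosome 5 cluster, were the highest (limma adjusted p = 0.000586, 0.000586 and 0.00146), above all members. SAUR32 (-0.23 ± 0.07), AT5G01830 (-0.16 ± 0.04), which the table also names as a SAUR, and SAUR48 (-0.15 ± 0.05) were the lowest, and none of them passed. The list was taken by name alone, so whether AT5G01830 belongs to the family was not checked. Between the times, 13 of the 52 were lower in the upper flank and 1 was higher, where 3.65% of all genes were lower and 2.48% higher. The lower flank had 5 higher and 7 lower, where 6.52% of all genes were higher and 7.68% lower.

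SAUR19, which led the family, changed in both flanks between the times. Its lower flank rose by 0.57 ± 0.10 (limma adjusted p = 0.00252) and its upper flank fell by 0.70 ± 0.10 (adjusted p = 0.00406).

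**Figure D4:**
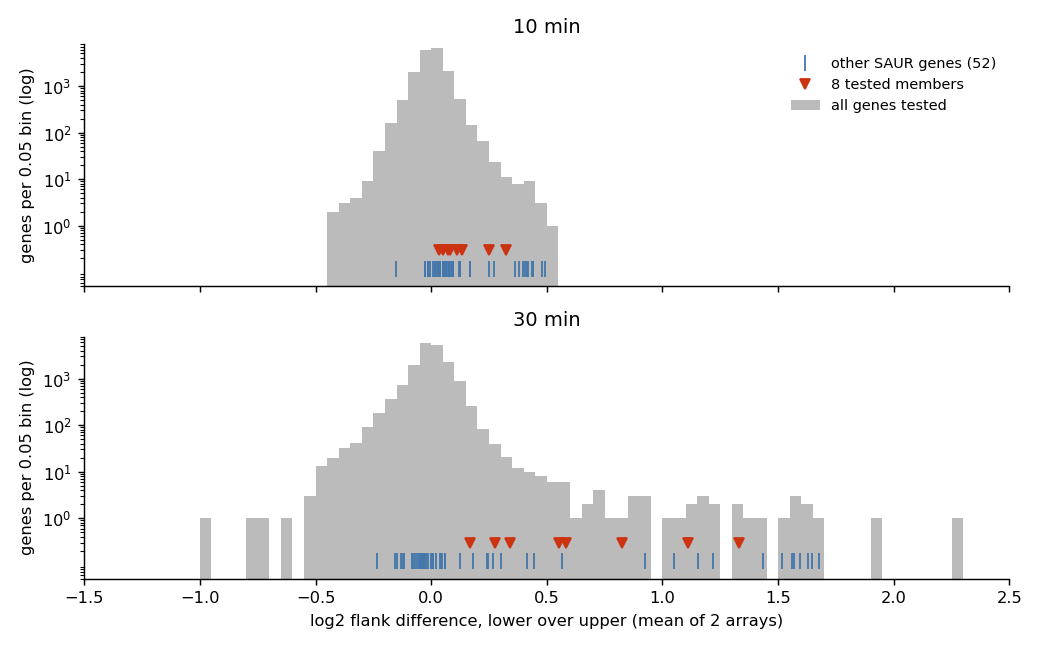
Number of genes (vertical axis, log scale) by log2 flank difference, lower over upper, in bins of 0.05 at 10 min (top) and 30 min (bottom), with triangles for the 8 tested members and ticks for the 52 other SAUR genes, placed at heights with no meaning. At 30 min the members span 0.17 to 1.33 on the right side of a distribution centred near 0.

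The genes beside the members on the chromosome were compared next. The nearest measured non-SAUR genes on each side of the members came to 12 distinct genes, none of which passed at either time. Their 30 min differences ran from -0.05 to 0.14 with a median of 0.02. CRK26 and ASE3, which bracket the SAUR14 to SAUR16 group, gave 0.01 ± 0.06 and -0.01 ± 0.04. SAUR genes that are not members also lie beside SAUR50 and SAUR6, and their values are given here although they were picked out after they were seen. Beside SAUR50, SAUR1 gave 0.45 ± 0.05 (limma adjusted p = 0.0553) and SAUR5 gave 0.27 ± 0.06 (adjusted p = 0.167), whereas SAUR49, SAUR2, SAUR3 and SAUR4 lay between -0.06 and 0.02. SAUR7, beside SAUR6, gave 0.12 ± 0.07 (adjusted p = 0.621).

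**Figure D5:**
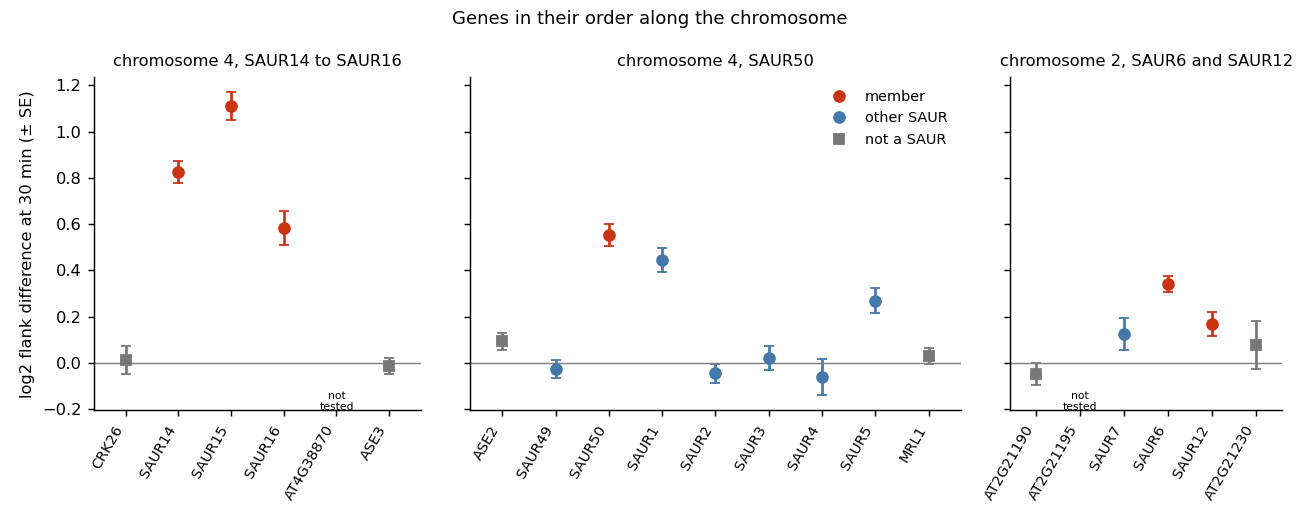
Log2 flank difference at 30 min with bars of 1 standard error for genes in their order along 3 chromosome stretches, with red for members, blue for other SAUR genes and grey squares for genes of other kinds. SAUR14, SAUR15 and SAUR16 (0.83, 1.11 and 0.58) stand between CRK26 and ASE3, which lie near 0, and SAUR50 (0.55) stands next to SAUR49 (-0.03) and SAUR1 (0.45).

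Genes that act before and after SAUR proteins were read from a separate list. Of 31 receptor, ARF, PP2C.D and AHA genes, all tested, 1 (3.23%) passed at 30 min, against 0.528% of all genes, and none at 10 min, against 0%. None of the 6 TIR1/AFB auxin receptor genes passed, with values from -0.06 (AFB5) to 0.16 (AFB1). None of the 5 activating ARF genes passed, with values from -0.06 (ARF7) to 0.19 (ARF8). The 11 AHA proton pump genes lay between -0.13 (AHA3) and 0.08 (AHA2), and none passed.

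The gene that passed was AT5G02760, which encodes a PP2C.D phosphatase, the kind of protein that SAUR proteins inhibit. Its log2 ratios were -0.10 and 0.01 at 10 min and 1.101 and 1.219 at 30 min, a 30 min difference of 1.16 ± 0.05 (limma adjusted p = 0.0025). Its lower flank rose by 0.66 ± 0.10 (adjusted p = 0.000907) and its upper flank fell by 0.54 ± 0.10 (adjusted p = 0.0196). The other 8 phosphatase genes ran from -0.03 (AT3G51370) to 0.17 (AT3G17090). Between the times TIR1 was lower at 30 min in the lower flank, by 0.38 on the log2 scale, and ARF6 was lower in the upper flank, by 0.39 (adjusted p = 0.0234 and 0.0377).

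Likeness was measured as the distance between the ratios on the 4 arrays, over 17753 genes. Nearest to the median profile of the members were RGF9, a peptide growth factor gene (distance 0.103), AT1G43910 (0.141), EXO, a brassinosteroid-induced gene of cell expansion (0.146), AT5G43700 (IAA4, an Aux/IAA auxin repressor, 0.151) and AT3G62630 (0.171). Taken singly, SAUR14 was nearest to SAUR29, SAUR15 to SAUR64, and SAUR25 to IAA1, another auxin-induced repressor. SAUR16 was nearest to YUC3, an auxin synthesis gene, SAUR50 to AT1G43910, SAUR6 to AT1G32190, SAUR12 to AT5G20130 and SAUR10 to AT3G15470. With 4 arrays these are descriptions only.

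Markers of stem tissues were measured beside these results. Of 27 markers 24 were tested, and stem markers of epidermis, photosynthetic tissue, endodermis, phloem, and xylem and fibre were above background in every channel. At 30 min 22 of the 24 had a flank difference below 0, with a median of -0.15, against -0.00062 over all genes. The 22 include the saturated RBCS1A, whose 2 arrays differed in sign (-0.69 and 0.39). Of the 21 markers with a value on both arrays, 14 were below 0 on both and 0 were above 0 on both. The phloem gene PP2-A1 alone passed (-0.36 ± 0.04, limma adjusted p = 0.0451), in the direction opposite to the SAUR genes. That is 4.17% of the markers, where 0.198% of all genes passed with the lower flank lower. At 10 min the median was 0.02. Summed epidermis signal at 30 min was 13.14 and 13.15 in the lower flank and 13.32 and 13.40 in the upper flank, on the log2 scale. Markers with a saturated spot, here RBCS1A (saturated in 7 channels), were left out of the sums. So were those without a value on every array, here CER1, CER3, FDH and XCP2. The epidermis sum thus holds 3 of 6 listed markers, and the xylem and fibre sum 4 of 6. Summed phloem signal was 11.56 and 11.50 against 11.73 and 11.71, xylem and fibre signal 11.24 and 11.27 against 11.41 and 11.29, and photosynthetic signal 15.39 and 15.56 against 15.56 and 15.75. Endodermis signal was 10.68 and 10.67 against 10.68 and 10.72, and flower signal, with AG above background in no channel, was 8.08 and 8.05 against 8.01 and 8.12. SHR was the brightest marker in the endodermis sum, and whether its transcript marks that tissue alone was not tested. Between the times 6 of the 24 markers (25%) were lower at 30 min in the lower flank, against 7.68% of all genes, and none passed in the upper flank. They were LHCA4 (-0.67), PP2-A1 (-0.49), CER5 (-0.47), LHCB5 (-0.46), SGR5 (-0.41) and LHCA2 (-0.34). These markers thus moved in the lower flank in the direction of SAUR50 and SAUR16. The part of tissue makeup in the SAUR results was not tested.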

How the data were processed

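Each of the 4 arrays held 22575 spots, of which 1075 were controls and 21500 gene probes, and 86% to 90.9% of gene probes were well above background per channel. Spots were read with Agilent Feature Extraction 8.1.1.1, per the file headers. The deposited intensity values were the mean spot and median local background brightness, with nothing subtracted, and the processed intensity was background-subtracted and dye-normalised, per the file headers. The authors' series table holds log10 ratios of the same arrays, and deposited flags (other values of 0 or 1) mark spots above background, saturated spots and outliers.

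From the intensities, background was corrected with normexp (offset 50) and ratios were loess-normalised in limma 3.58.1 under R 4.3.3. Control spots had no weight and outlier spots were left out. A gene was tested if both arrays of 1 or more combinations of flank and time had it well above background. Ratios of all 4 arrays were fitted with a mean per time (lmFit, eBayes), and flank levels used Aquantile scaling between arrays. P-values were adjusted over all genes tested by Benjamini-Hochberg, ± values are standard errors, and the number of arrays limits the precision.

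The replicate number is the dye orientation, per the labels. Ratios of same-numbered arrays at 10 and 30 min correlated at 0.27 and 0.28 over genes, and the 2 arrays of a time at -0.06 (10 min) and 0.44 (30 min). The dye half-differences of the 2 times correlated at 0.87, so the spread of the fit without a dye term holds each gene's dye effect, which cancels in the mean of a time. Each array lay on its own slide, so a slide block was not run. The members and lists were chosen with earlier results of these data known. All members were named, as were the highest and lowest 3 other SAUR genes, the highest, lowest and passing pathway genes, and the nearest profiles. Of the 12 nearest non-SAUR neighbours, only CRK26 and ASE3 were named. Names came from a RefSeq table of another coordinate set, used for names and order only. Promoter and protein sequences were not used here.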

Additional observations from a re-analysis of the deposited data

Results flagged for a closer look

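The flank difference of SAUR25 differed between the times by the test of the difference itself. It was 1.20 larger at 30 min than at 10 min on the log2 scale (SE 0.06, limma adjusted p = 0.0127). The ratios were 0.12 and 0.14 at 10 min and 1.28 and 1.38 at 30 min. The call was lost with the deposited processed signals, the series table and median centring in place of loess. SAUR25 was not alone in this, as 8 of the 52 other SAUR genes tested (15.4%) passed too, among them SAUR19 (1.26). The PP2C.D gene AT5G02760 (1.20) also passed. Of all genes, 0.105% passed with the later difference larger.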

How the results depend on the processing

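Over 15 settings, 472 recomputed values of single members gave 388 with the same direction and side of the threshold, 29 no longer past it, 46 newly past it and 9 with the other sign. The settings are not independent, so these totals count some fits more than once. For a flank difference, fitting its time alone and leaving out an array of the other time are the same fit. The series table nearly repeats the processed signals. The direction was unchanged for all members at 30 min and for the increase between the times under every setting run. The replicate block, the time fitted alone and the changed filters alter only the spread or the gene set, so they could not change a direction. Leaving out an array could not change the 30 min direction either, because both 30 min arrays were above 0 for every tested member.

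Members with a higher lower flank at 30 min numbered 5, and 4 with offset 16, the processed signals, the series table or no filter on dim probes. They numbered 0 with median centring, 7 with the time fitted alone and 6 to 7 when a replicate was left out. At 10 min the count of 0 became 2 with the time fitted alone and 0 to 2 when a replicate was left out. For the increase between the times, the count of 1 became 0 with processed signals, median centring or the series table, and 4 to 5 without a replicate. In the lower flank, the 2 lower members became 1 with offset 16 or a separate-channel fit, 0 with processed signals or no scaling, and 0 to 1 without a replicate, and the 1 higher became 0 without scaling. In the upper flank, the 4 lower members became 0 without scaling.

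With the replicate block, 6 members passed at 10 min, 8 at 30 min and 8 for the increase, beside 4266, 6289 and 6907 genes in all, and 1744 genes in the upper flank. That block leaves 1 residual degree of freedom.

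Genes called at 10 min numbered 0, 86 with the time fitted alone and 44 to 104 without a replicate. At 30 min they numbered 96, 47 with offset 16, 60 with processed signals, 61 with the series table, 0 with median centring, 613 with the time alone and 214 to 613 without a replicate. The share with the lower flank higher was 62.5%, and 89.4% with offset 16, 83.3% with processed signals, 82% with the series table and 37.4% with the time alone. For the increase the count was 23, 2 with processed signals, 2 with the series table, 0 with median centring and 234 to 429 without a replicate. In the lower flank it was 2581, 1035 with processed signals, 13 without scaling and 932 to 3307 without a replicate. In the upper flank it was 1114, 488 with processed signals, 8 without scaling and 461 to 3190 without a replicate.

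Values that changed sign were small. At 10 min, leaving out a replicate gave -0.018 to 0.24 for SAUR16 and -0.019 to 0.13 for SAUR12, negative without the first, and -0.028 to 0.099 for SAUR10, negative without the second. In the lower flank SAUR12 gave 0.058 without scaling and -0.14 to 0.045 without a replicate (positive without the first 10 min or the second 30 min replicate). There SAUR15 gave -0.034 to 0.13 and SAUR6 -0.067 to 0.13, negative without the first 30 min replicate. In the upper flank SAUR10 gave 0.062 without scaling. The causes were not tested. The dim SAUR9 probe limits what can be said of that gene.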
